A study of Mus musculus with 6 samples.

Results

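The PSD-95 family genes Dlg1, Dlg2, Dlg3 and Dlg4 and the IQSEC exchange factor genes Iqsec1 and Iqsec2 were examined in the striatal transcriptome of Shank3 transgenic (TG) mice. These 6 genes of the 46078 in the deposited table were chosen by name, through the Ensembl identifiers that carry these symbols in GENCODE M21. The study sequenced striatal RNA from 12-week-old male mice on a C57BL/6J background, 3 wild-type (WT) mice and 3 mice that carry an EGFP-Shank3 transgene, with 1 library per mouse. The promoter that drives the transgene and the litters of the mice are not given in the sources used here. The comparison asks which striatal transcripts differ when Shank3, a core scaffold of the excitatory postsynapse, is overexpressed.

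Proteins of the PSD-95 family are membrane-associated guanylate kinases (MAGUKs), which carry PDZ domains, an SH3 domain and an inactive guanylate kinase domain. Their PDZ domains hold NMDA receptors, potassium channels and the auxiliary subunits of AMPA receptors at the postsynaptic membrane, and their guanylate kinase domain binds the SAPAP (Dlgap) proteins, which in turn bind Shank proteins. IQSEC proteins are guanine nucleotide exchange factors for Arf6, a small GTPase of endosomal traffic and of AMPA receptor removal, and they bind calmodulin through an IQ motif and the PDZ domains of PSD-95. In the striatum, these proteins lie beneath the cortical and thalamic synapses on the spines of medium spiny neurons (MSNs).

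Values below are normalized read counts, which are gene counts divided by the size factor of the library. The libraries held from 27689589 to 36647626 gene counts. For Shank3, TG mice averaged 28081 ± 1934 normalized read counts and WT mice 13530.2 ± 531 (SD over 3 mice each), and the log2 fold change was 1.05 with a standard error of 0.06 (adjusted P = 7.04e-05 by limma). The reads do not tell the transgene from the endogenous gene. The tissue carried MSN markers, 19 of 19 detected, among them Pde10a (from 31505 to 45595 normalized read counts over the 6 mice), a phosphodiesterase of MSNs. Of these 19 markers, 16 were lower and 3 higher in TG mice, with a median log2 fold change of -0.10. Limma passed 0 of them at an unadjusted P value under 0.05, and their part in the values below was not tested. The tissue also carried markers of cortical excitatory neurons, 14 of 14 detected, among them Slc17a7, the vesicular glutamate transporter of cortical neurons (from 20237 to 29848). TG replicate 1 stood apart, with a sum of 15972 normalized read counts over the 15 choroid plexus markers, against 2115 and 722 in TG replicates 2 and 3 and from 659 to 1011 in WT mice, and with the lowest sum of the MSN markers (240355, against 277420 to 323996 in the 5 other libraries). Of the 14 choroid plexus markers tested, 14 were higher and 0 lower in TG mice, with a median log2 fold change of 1.32. Limma passed 5 of these at an unadjusted P value under 0.05, against 4.31% of all genes tested, and called 0. Their part in the values below was not tested. The values of Dlg1, Iqsec1 and Iqsec2 are also given without TG replicate 1.

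None of the 6 genes passed the test between the genotypes. In bulk striatum, a change in the number of cells of a type and a change in RNA per cell cannot be told apart. On log2(normalized read count + 1), limma called 0 of 6 at an adjusted P value of 0.05, where it called 0.00568% of the 17605 genes tested, which is Shank3 alone. At an unadjusted P value under 0.05, limma passed 0 of the 6 genes and 4.31% of all genes (1.98% higher and 2.33% lower in TG mice). The count-based tests also called 0 of 6 at the adjusted level, where DESeq2 called 0.0398% of all genes and both limma-voom and the quasi-likelihood test of edgeR called 0.00568%. The log2 fold changes lay between -0.11 for Iqsec2 and 0.07 for Dlg1, and the 95% intervals of the 6 genes together spanned 0.858-fold to 1.12-fold of the WT level, so larger changes of any member lay outside its interval. The log2 fold change had a median size of 0.04 among the 6 genes, 0.07 among all genes tested and 0.05 among the 6238 genes whose mean reached 1000 normalized read counts.

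**Figure D1:**
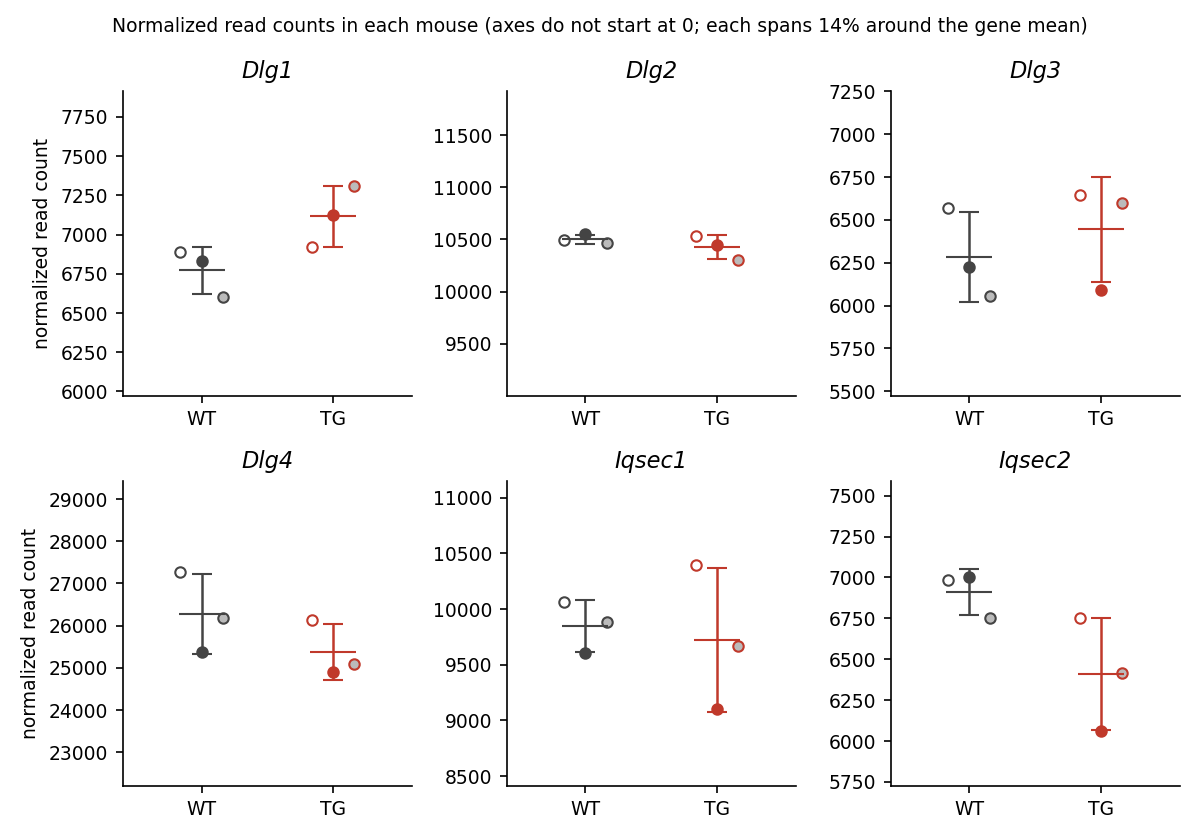
Normalized read counts of the 6 genes in each WT (dark grey) and TG (red) mouse, with the mean (long bar) and SD (whiskers, n = 3); open, filled and light grey points are replicates 1, 2 and 3, and the axes do not start at 0. Dlg1 is the gene whose 3 TG values all lie above the 3 WT values, and in Iqsec2 the lowest WT value and the highest TG value nearly coincide.

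Dlg4 encodes PSD-95, the most abundant MAGUK of the mature excitatory postsynapse. Dlg4 had 26124, 24892 and 25097 normalized read counts in TG replicates 1, 2 and 3 and 27266, 25379 and 26188 in WT replicates 1, 2 and 3. The groups overlapped, since the highest TG mouse lay above the lowest WT mouse. The means were 25371 ± 660.3 and 26278 ± 947 (SD, n = 3 each), and the log2 fold change was -0.05 with a standard error of 0.05 (adjusted P = 0.971 by limma). Leaving out any single mouse gave values from -0.08 to -0.02.

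Dlg1 encodes SAP97, the member of the family that is also found along the secretory path of AMPA receptors and in epithelia. Dlg1 had 6922, 7122 and 7311 normalized read counts in the TG group, and WT mice had 6886, 6829 and 6604. The groups did not overlap, although TG replicate 1 lay just above the highest WT mouse. The mean was 5.09% higher in TG mice, a log2 fold change of 0.07 with a standard error of 0.04 (adjusted P = 0.971 by limma), and by an exact two-sided permutation P was 0.1, which is the lowest it can give with 3 mice per group. Dlg1 was 1 of the 6 genes, or 16.7%, without overlap between the groups, against 10.1% of all genes tested (5.06% with the TG mice above and 5.05% with the TG mice below). Without TG replicate 1, the log2 fold change was 0.09 (adjusted P = 0.679 by limma).

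Dlg2 encodes PSD-93, a close relative of PSD-95 at the postsynaptic density. Dlg2 had 10533, 10446 and 10303 normalized read counts in the TG group, and WT mice had 10497, 10548 and 10464. It was the steadiest of the 6 genes, since the WT mice differed by a coefficient of variation of 0.403%, below the 0.974% that counting alone gives at its mean depth, and the TG mice by 1.11%. The log2 fold change was -0.01, with a 95% interval from -0.10 to 0.08. Its standard error of 0.04 by limma draws on the spread of genes of similar level, while the SD of Dlg2 within groups was 0.01 on the log2 scale.

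Dlg3 encodes SAP102, the member of the family that prevails at immature synapses and binds NMDA receptors. Dlg3 had 6646, 6092 and 6598 normalized read counts in the TG group, and WT mice had 6572, 6226 and 6054. Both groups held high and low mice and their ranges overlapped over most of their width. The log2 fold change was 0.04 with a standard error of 0.05, and leaving out any single mouse gave values from 0.01 to 0.08.

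Iqsec2 encodes an X-linked Arf6 exchange factor of the postsynaptic density, and its protein is in the study's list of Shank3 interactors and in its list of Rhes interactors. Iqsec2 had 6751, 6063 and 6414 normalized read counts in the TG group, and WT mice had 6981, 7000.2 and 6750.5. TG replicate 1 lay level with the lowest WT mouse, and the other TG mice lay below all WT mice. The TG mean of 6409 ± 344 stood 7.26% below the WT mean of 6911 ± 139 (SD, n = 3 each), for a log2 fold change of -0.11 with a standard error of 0.05. The adjusted P value was 0.971 by limma, the 95% interval ran from -0.22 to 0.00, and by an exact two-sided permutation P was 0.2. This was the largest difference among the 6 genes and exceeded that of 69.3% of all genes tested and of 90.0% of genes whose mean reached 1000 normalized read counts. Leaving out TG replicate 1 moved the log2 fold change to -0.15 (adjusted P = 0.658 by limma) and leaving out TG replicate 2 to -0.07 (adjusted P = 0.946).

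Iqsec1 encodes BRAG2, an Arf6 exchange factor that acts in the removal of AMPA receptors during synaptic depression. Iqsec1 had 10393, 9103 and 9667 normalized read counts in the TG group, and WT mice had 10060.1, 9601 and 9880.3. The highest and the lowest of the 6 libraries were both TG, and the WT mice lay between them. The TG mice thus had a coefficient of variation of 6.65%, the widest of any group of the 6 genes, against 2.35% in WT mice. The log2 fold change was -0.02 with a standard error of 0.05, and it turned to 0.03 without TG replicate 2 and to -0.07 without TG replicate 1.

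The libraries did not shift the 6 genes alike. TG replicate 2 held the lowest value of the 6 libraries in Dlg4, Iqsec1 and Iqsec2, while its Dlg1 lay 0.07 above the WT mean on the log2 scale. The same library had the lowest sum of the cortical excitatory neuron markers, 83276 normalized read counts against 94639 to 103590.03 in the 5 others, and their part in these values was not tested. Over the 6 libraries, the log2 values of Dlg4 and Iqsec1 had a Pearson correlation of 0.74, those of Dlg4 and Iqsec2 of 0.70 and those of Iqsec1 and Iqsec2 of 0.68, whereas Dlg1 ran against Dlg4 (-0.55), Iqsec2 (-0.64) and Dlg2 (-0.69). The points are the same 6 libraries in each pair, so they share depth, dissection and base composition.

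GC content moved with these differences. By the longest transcript in GENCODE M21, GC content was 43.8% in Dlg1, 44.3% in Dlg2, 46.8% in Dlg4, 50.4% in Dlg3, 52.1% in Iqsec1 and 59.6% in Iqsec2. Over all genes tested, the median log2 fold change was 0.03 in the 3423 genes with a GC content from 40 to 45% and -0.04 in the 3034 genes from 55 to 60%. Per library, the fitted deviation at a GC content of 60% relative to that at 45% was -0.10 in TG replicate 2 and -0.07 in TG replicate 3, but 0.05 in TG replicate 1 and from 0.01 to 0.06 in WT mice. This trend thus set TG replicates 2 and 3 apart from the WT mice, so it cannot be fully told apart from genotype. Correcting for it could also take out part of a difference between the genotypes. After a correction for this trend in each library, chosen after the data were seen, the log2 fold change of Iqsec2 was -0.05 (95% interval -0.14 to 0.05, unadjusted P = 0.315 and adjusted P = 1.00 by limma) in place of -0.11. That of Dlg1 was 0.05 (95% interval -0.04 to 0.15, adjusted P = 1.00 by limma). Its lowest corrected log2 value in TG mice, 12.7621 in replicate 2, lay barely above the highest in WT mice, 12.7618 in replicate 1. The other members moved by at most 0.02. Dlg2 went from -0.011 to -0.029, Dlg3 from 0.036 to 0.041 and Dlg4 from -0.050 to -0.062, away from 0. Iqsec1 went from -0.020 to -0.005, towards 0.

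**Figure D2:**
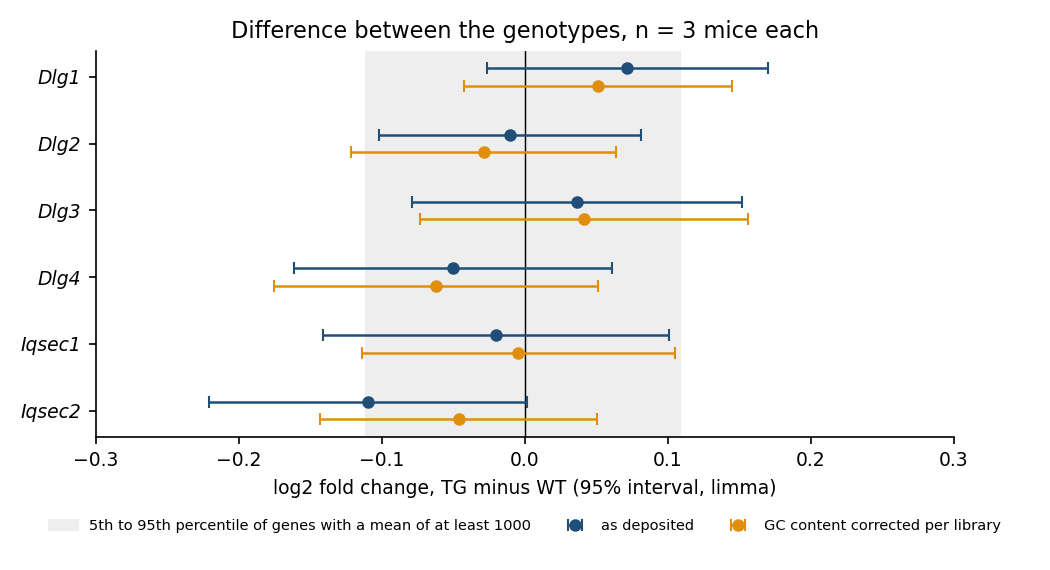
Log2 fold change of each gene (TG minus WT) with its 95% interval by limma (3 mice per genotype), as deposited (blue) and after correction for GC content per library (orange); the grey band holds the log2 fold changes of genes with a mean of at least 1000 from the 5th to the 95th percentile. All intervals include 0, and the value of Iqsec2 moves from -0.11 to -0.05 with the correction.

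**Figure D3:**
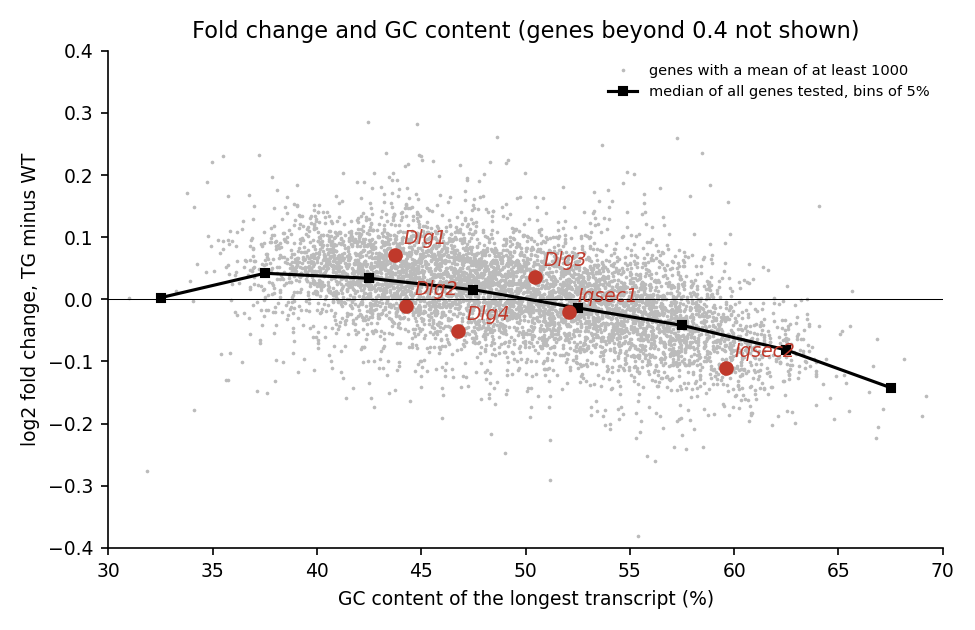
Log2 fold change (TG minus WT) against the GC content of the longest transcript for genes with a mean of at least 1000 (grey) and the 6 genes (red), with the median over all genes tested in bins of GC content (black squares). The medians fall from 0.04 at 35 to 40% to -0.08 at 60 to 65%, and Iqsec2 lies at the GC-rich end.

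Base composition also differed among the stretches before the RefSeq starts of the genes. Promoter stretches of 3 genes are shown, those of the 2 genes with the largest differences in either direction, Dlg1 and Iqsec2, and that of Dlg4, the most abundant member. Each is the run of 250 bases before the most 5′ start of the gene in RefSeq (GRCm38.p6), at chr16:31663193-31663442 (plus strand) for Dlg1, chr11:70016953-70017202 (plus strand) for Dlg4 and chrX:152144018-152144267 (plus strand) for Iqsec2, and capitals mark matches on either strand to the letters searched.
Dlg1: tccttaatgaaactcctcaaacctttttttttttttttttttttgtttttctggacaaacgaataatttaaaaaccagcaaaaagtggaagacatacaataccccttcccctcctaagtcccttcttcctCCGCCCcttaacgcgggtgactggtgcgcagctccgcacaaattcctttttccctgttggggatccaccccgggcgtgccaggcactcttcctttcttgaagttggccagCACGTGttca
Dlg4: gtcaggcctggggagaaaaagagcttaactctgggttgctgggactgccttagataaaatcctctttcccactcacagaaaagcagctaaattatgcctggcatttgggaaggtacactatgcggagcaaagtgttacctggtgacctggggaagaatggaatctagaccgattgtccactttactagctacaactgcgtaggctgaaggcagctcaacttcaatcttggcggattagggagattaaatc
Iqsec2: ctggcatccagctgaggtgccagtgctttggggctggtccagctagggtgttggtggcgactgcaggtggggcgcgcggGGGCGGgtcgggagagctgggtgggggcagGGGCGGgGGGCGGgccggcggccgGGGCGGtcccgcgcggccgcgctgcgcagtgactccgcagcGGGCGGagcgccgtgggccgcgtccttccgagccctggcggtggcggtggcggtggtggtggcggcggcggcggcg

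The Iqsec2 stretch held 34 CpG dinucleotides, at percentile 96.5 of all promoter stretches of this length, and the GC box GGGCGG 5 times. The Dlg1 stretch had a GC content of 46.0% with 9 CpGs, and it held 1 GC box and the E-box CACGTG once. The Dlg4 stretch had a GC content of 47.2% with 4 CpGs and no match. By GENCODE M21, where Dlg4 begins at 70016942, the Dlg4 stretch lies within the gene and not upstream of it. No matches overlapped each other. Of all 32851 promoter stretches of this length, 32.7% held the GC box and 6.02% the E-box, and the median was 6 CpGs and a GC content of 52.4%. The CCAAT box (the letters CCAAT, in 33.8% of all stretches), the TATA box (the letters TATAAA, in 12.4%) and the core of the cAMP response element (the letters TGACG, in 17.8%) had no match in these 3 stretches. The genes have from 2 to 4 starts in this table, and the counts do not tell which were used.

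Levels of the 6 genes can be set side by side only per length. As RPKM, the reads per kb of exon scaled to the counted reads of each library, over the union of all annotated exons, Dlg4 stood at 62.9 ± 1.97 (WT) and 60.9 ± 1.52 (TG, SD, n = 3 each). Next came Dlg3 with a mean of 34.6 over the 6 libraries, Iqsec2 with 30.3, Iqsec1 with 26.8, Dlg1 with 20.6 and Dlg2 with 20.4. The ranges over the 6 libraries overlapped between Iqsec2 (27.7 to 31.9) and Iqsec1 (25.1 to 28.5), although Iqsec2 lay above Iqsec1 within each of the 6 libraries. The ranges of Dlg1 (19.5 to 21.6) and Dlg2 (20.1 to 20.6) overlapped too, and Dlg1 lay above Dlg2 in 2 of 6 libraries, both of them TG, so this pair had no fixed order. The place of Dlg4 did not hang on the length used, since it had an RPKM of 129.7 by its longest transcript, but the order of the others did. By the longest transcript, the means over the 6 libraries were 42.6 for Dlg2, 40.3 for Dlg3, 38.7 for Iqsec1, 35.9 for Dlg1 and 35.2 for Iqsec2, with overlapping ranges between each pair of neighbours among these 5. Dlg2 lay above Dlg3 in 6 of 6 libraries, while Dlg1 lay above Iqsec2 in the 3 TG libraries and below it in the 3 WT libraries. This order was not tested, and by the union of exons the range of Iqsec2 lay wholly above that of Dlg1.

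**Figure D4:**
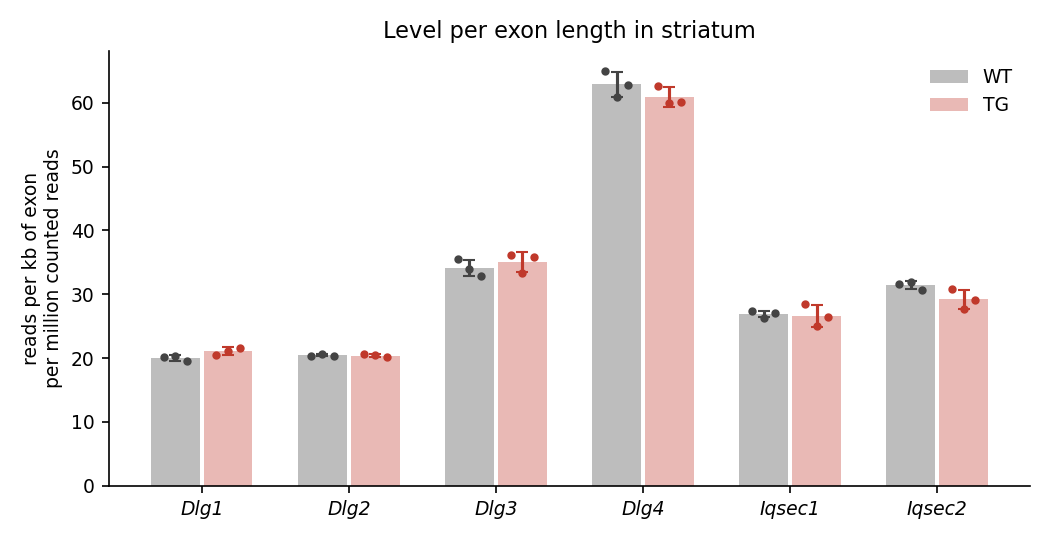
Level of each gene in RPKM (union of exons), in WT (grey) and TG (red) striatum, with bars for the mean, whiskers for the SD (n = 3) and points for the 3 mice. Dlg4 stands at 62.9 in WT and 60.9 in TG mice, above all others.

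Among the 4 Dlg genes, and between Iqsec1 and Iqsec2, the composition was close between the genotypes. Of the summed RPKM of the 4 Dlg genes, Dlg4 made up 45.7% ± 0.734 in WT mice and 44.3% ± 0.579 in TG mice (SD, n = 3 each), with ranges of 44.9% to 46.3% and 43.7% to 44.8%. Dlg1 made up 14.6% ± 0.310 and 15.4% ± 0.605 in the same order, with overlapping groups. The sum itself was 137 ± 3.07 RPKM in WT mice and 138 ± 2.49 RPKM in TG mice (SD, n = 3 each). Of the summed level of both IQSEC genes, Iqsec1 made up 46.4%, 45.2% and 46.8% in WT mice and 48.1%, 47.5% and 47.6% in TG mice. By these exon lengths the TG shares of Iqsec1 lay above the WT shares and the TG shares of Dlg4 below them, which is a description with no test. Each separation was lost under another setting. By the longest transcript the Dlg4 share was 52.1% in TG replicate 1 and 52.0% in WT replicate 2, so the groups overlapped. After the GC correction the log2 difference of Iqsec1 minus Iqsec2 ran from 0.54 to 0.64 in TG mice and from 0.46 to 0.58 in WT mice.

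The genes differ widely in size. On GRCm38, Dlg1 (ENSMUSG00000022770) lies on chromosome 16 from 31663443 to 31875129, Dlg2 (ENSMUSG00000052572) on chromosome 7 from 90476672 to 92449247, Dlg3 (ENSMUSG00000000881) on chromosome X from 100767722 to 100818410 and Dlg4 (ENSMUSG00000020886) on chromosome 11 from 70016942 to 70047522, all on the plus strand. Iqsec1 (ENSMUSG00000034312) lies on the minus strand of chromosome 6 from 90656088 to 90988685 and Iqsec2 (ENSMUSG00000041115) on the plus strand of chromosome X from 152144268 to 152225236. Dlg2 thus spans 1973 kb and Dlg4 30.6 kb, while their exons cover 16280.0 and 13251 bases. In the annotation 40 other genes overlap the 6 genes, of which 10 are in the deposited table, with means of at most 2.22 normalized read counts. The 3 of them that share exon bases with a member, 2 with Dlg2 and 1 with Iqsec1, were not analysed here. The kit did not mark strand, so reads of Iqsec1 and of the antisense gene that shares exon bases with it cannot be told apart. Of the runs of 50 bases in the annotated transcripts, those also found in a transcript of another gene made up at most 4.09% (Iqsec1) and 0% in Dlg3 and Iqsec2. These runs were counted in the annotation and not in the reads, so the share of reads they touch was not measured.

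Genes with the most similar course over the 6 libraries were sought among those with a mean of at least 100 normalized read counts, by Pearson correlation of log2 values. They were Gria2 (0.99) and Etf1 (0.99) for Dlg1, Pdlim4 (0.99) and Tpd52l1 (0.98) for Dlg2, Snap25 (0.99) and Zfp712 (0.99) for Dlg3, Fbxo31 (0.99) and Txnl4b (0.99) for Dlg4, Tgfb1i1 (0.99) and Zyx (0.99) for Iqsec1, and Steap3 (0.99) and Ttbk1 (0.99) for Iqsec2. With 6 libraries and 12831 genes compared, between 31 and 55 genes reached a correlation above 0.95 with each member.

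The wider postsynaptic machinery was examined with 4 lists, which together held 172 genes tested. Limma, DESeq2, edgeR and limma-voom each called 0 of them at an adjusted P value of 0.05. At an unadjusted P value under 0.05, limma passed 10, or 5.81%, 3 higher and 7 lower, against 4.31% of all genes tested. The groups did not overlap in 21 genes, or 12.2%, against 10.1% of all genes.

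Of 56 partners and anchors of the PSD-95 family, 25 were higher and 31 lower, with a median log2 fold change of -0.02. At an unadjusted P value under 0.05, limma passed 1 higher and 3 lower. Dlgap3 encodes SAPAP3, the striatal SAPAP that ties PSD-95 to Shank3, and it had 17163, 16982 and 15621 normalized read counts in the TG group, and WT mice had 18717, 18275 and 18970.2. All TG mice lay below all WT mice, at a log2 fold change of -0.17 with a standard error of 0.05 (unadjusted P = 0.00725, adjusted P = 0.971 by limma). Its transcript has a GC content of 63.9%, and the log2 fold change was -0.07 after the GC correction (unadjusted P = 0.170 by limma). Abhd17a (-0.16), which removes palmitate from PSD-95, and Lrrc4b (-0.12), an adhesion protein that binds PSD-95, were the other lower genes, at -0.05 and -0.02 after the correction. Zdhhc15 (0.19), a palmitoyl transferase for PSD-95, was the higher gene and stood at 0.17 after the correction. Lgi1 and Lgi2, secreted ligands whose receptors bind PSD-95, had log2 fold changes of 0.09 and 0.08. The most abundant of the list, Kif1b (0.02), a kinesin, and Grin2b (0.04), an NMDA receptor subunit, were close between the genotypes.

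Of 18 other MAGUK genes tested, 11 were higher and 7 lower, with a median log2 fold change of 0.02, and limma passed 0 at an unadjusted P value under 0.05. Those with the smallest P values were Mpp5 (0.11), a polarity scaffold, Cask (0.07), a presynaptic and dendritic scaffold, and Cacnb4 (0.07) among the higher genes and Cacnb3 (-0.13), Cacnb1 (-0.06) and Tjp1 (-0.06), a tight junction scaffold, among the lower ones. Cacnb3 and Cacnb4, subunits of voltage-gated calcium channels, were also the most abundant of the list. After the GC correction, Cacnb3 stood at -0.06 and Cacnb1 at 0.01, with its direction turned.

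Of 43 genes of the Arf cycle, 20 were higher and 23 lower, with a median log2 fold change of -0.00. At an unadjusted P value under 0.05, limma passed Smap1 (0.15), an Arf6 GTPase-activating protein, as higher and Psd (-0.14), the Arf6 exchange factor EFA6A, and Cyth4 (-0.20), an Arf exchange factor of the cytohesin family, as lower. Psd had 15967, 15404 and 14973 normalized read counts in the TG group, and WT mice had 18152, 16541 and 16485, without overlap. Its GC content is 61.2%, and its log2 fold change was -0.07 after the correction (unadjusted P = 0.220 by limma), whereas Smap1 stood at 0.14 (unadjusted P = 0.0372) and Cyth4 at -0.17 (unadjusted P = 0.0476). Cyth4 is mainly a gene of immune cells. The 10 microglia markers summed to 12609.8 to 13596 normalized read counts in TG mice and 13702 to 14358 in WT mice, and 10 of 10 were lower. At an unadjusted P value under 0.05, limma passed 4 of these markers, where 2.33% of all genes tested passed as lower, and it called 0. Their part in the value of Cyth4 was not tested. The next genes by P value were Arfgef2 (0.08) and Agfg1 (0.09) among the higher and Arap1 (-0.16) among the lower ones. The most abundant, Arf3 (-0.02) and Agap2 (-0.09), did not pass, and after the correction they stood at -0.00 and 0.00, with the direction of Agap2 turned.

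Of 55 regulators of other small GTPases of the spine, among them Ras, Rap and Rac, 31 were higher and 24 lower, with a median log2 fold change of 0.01. Rasgrf1, a calcium-dependent Ras exchange factor that binds NMDA receptors, had 12454, 12372 and 12068 normalized read counts in the TG group, and WT mice had 10344, 11192 and 11445. All TG mice lay above all WT mice, the log2 fold change was 0.16 with a standard error of 0.05 (unadjusted P = 0.00831, adjusted P = 0.971 by limma), and it was 0.17 after the GC correction (unadjusted P = 0.00415 by limma). Arhgap33 (-0.13), a Cdc42 and Rac GTPase-activating protein, and Dab2ip (-0.11), a Ras GTPase-activating protein, were the lower genes that passed an unadjusted P value of 0.05, and both were at -0.05 after the correction. Next by P value came Chn2 (0.12) and Rasal2 (0.10) among the higher genes and Sipa1l3 (-0.11) among the lower ones. The most abundant genes, Rapgef4 (-0.07) and Rasgrp1 (0.00), both exchange factors, for Rap and Ras, did not pass.

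**Figure D5:**
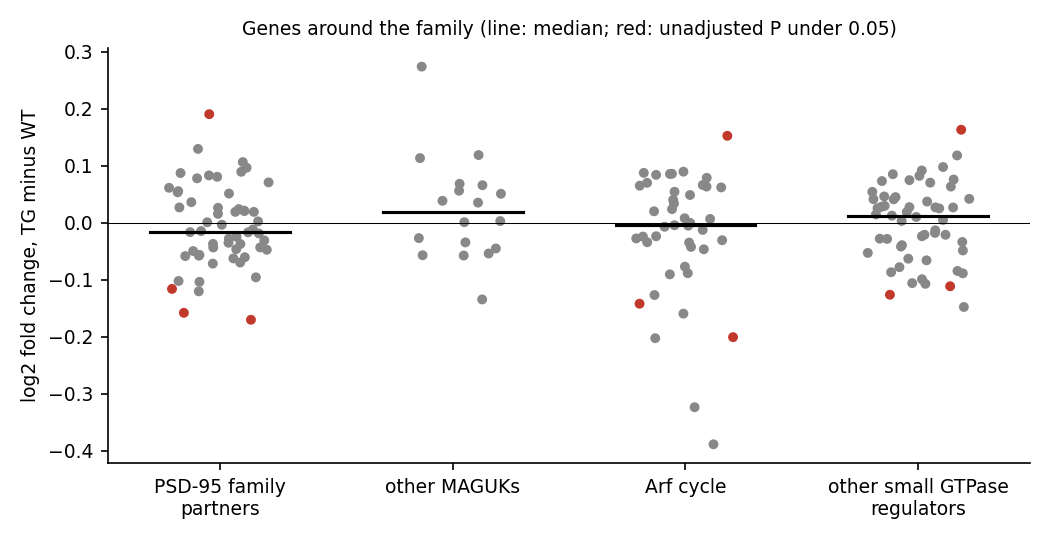
Log2 fold change (TG minus WT) of each gene tested in the 4 lists, with the median of each list as a line and genes at an unadjusted limma P value under 0.05 in red. The medians lie between -0.02 and 0.02, and 10 of the 172 genes are red.

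Over the 4 lists, the 7 lower genes that passed without adjustment had GC contents from 54.5 to 64.6% and the 3 higher genes from 42.4 to 50.8%. After the GC correction, 3 of these 10 genes (Smap1, Rasgrf1 and Cyth4) still passed an unadjusted P value of 0.05, and 1 further gene, Arhgap44, did so, which was named after its value was seen. These 4 genes are 2.33% of the lists, against 3.07% of all genes under the same correction.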

How the data were processed

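Striatal RNA from 3 WT and 3 Shank3 TG mice was measured. As the paper's methods and the labels state, the authors trimmed paired-end reads with Trimmomatic 0.35, aligned them with TopHat2 2.1.0 to GRCm38, obtained gene counts with HTSeq and scaled these by the size factors of DESeq2. The authors deposited this signal, the normalized read count, for each gene and library. The strand setting and the annotation release are not given in the sources used here. Within a library, 100% of values were whole multiples (within 0.01 reads) of its lowest nonzero value, and the counts so recovered entered DESeq2 1.42.0, edgeR 4.0.16 and limma-voom. The main test was limma 3.58.1 (R 4.3.3) with its trend option, on log2(normalized read count + 1) over the 17605 genes whose mean reached 10. P values were adjusted by the method of Benjamini and Hochberg, and the fit was tested on simulated data. On this scale the change of low genes is understated. P values of limma rest on the spread between these mice, moderated for each gene towards that of genes of similar level. Count totals cover counting error only. Gene names, lengths and GC content came from GENCODE M21, which matched 45143 genes, and GC content was at hand for 99.5% of the genes tested.

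The members and the lists were chosen with earlier results of these data known. Named genes are the 6 members, Shank3, in each list the top 3 genes by P value in either direction and the 2 most abundant, the leading markers, and the 2 genes most correlated with each member. Alternatives covered scaling (TMM or library totals), the filter (none, or a mean of 50), the pseudocount (0.5 or 5), the other tools, DESeq2 with shrunken fold changes and an empirical null, the replicate number as a block, omission of single libraries and, added after the data were seen, a loess correction for GC content per library (span 0.3). In 15 pairs of libraries the mean squared difference was from 4.97 to 14.0 times that of counting error, so none were taken as copies.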

Additional observations from a re-analysis of the deposited data

How the results depend on the processing

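None of the 6 members was called in any of the 18 alternatives, and over all of them the adjusted P value of a member lay between 0.658 and 1.00. Of 108 recomputed fold changes of members, 107 kept their direction and their side of the threshold. The exception was Iqsec1, whose log2 fold change of -0.02 was -0.070 without TG replicate 1 and positive, 0.026, without TG replicate 2, where the cause was not tested. The unadjusted P value of Iqsec2 was 0.0520 in the main test by limma, where 4.31% of all genes tested lay under 0.05. By limma it was 0.0484 with TMM scaling (4.35% of all genes), 0.0440 with the replicate block (5.82%) and 0.0119 without TG replicate 1 (7.54%). By DESeq2 with a prior and an empirical null it was 0.0220 (6.07% of all genes). Under the GC correction, the P value of Iqsec2 was 0.315 by limma (3.07% of all genes). With the replicate block limma called 1 gene in the whole table and 0 members, the same numbers as without it. The deviations of same-numbered mice from their group means correlated at 0.05, 0.02 and 0.09, so the numbers were not taken to pair the mice, and TG replicates 1 and 2 correlated best with a WT mouse of another number. The number of genes called over the whole table was 1 in the main test, 5 without a filter, 7 by DESeq2 and 15 by DESeq2 with a prior and an empirical null, and from 1 to 2 when single mice were omitted. By the longest transcript, the RPKM values were 35.9 for Dlg1, 42.6 for Dlg2, 40.3 for Dlg3, 129.7 for Dlg4, 38.7 for Iqsec1 and 35.2 for Iqsec2. With from 5394 to 30446 reads per member and library, counting error was between 0.620% and 1.25%. The spread between mice exceeded it in 5 members, up to 6.65%, but in Dlg2 it was 0.403% in WT and 1.11% in TG mice, against a counting error of 0.974%.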
